A study of Mus musculus with 27 samples.

Results

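The genes described here build the axoneme, the microtubule machine of motile cilia and of the sperm tail. They were taken by name: all protein-coding genes whose symbol begins with Dnah, Dnai, Dnali, Dnaaf, Rsph, Drc or Cfap. The rule found 73 genes among the 21834 protein-coding genes of the long RNA table (sense strand), namely 15 Dnah, 5 Dnai and Dnali, 7 Dnaaf, 8 Rsph, 3 Drc and 35 Cfap genes. Long RNA was sequenced from mouse testicular cells sorted by DNA content into 1n cells (spermatids) and 4n cells (spermatocytes). The cells came from the lines Strep1 (RP68 in its genotype label) and Strep2 (RP85) and from wild type (WT) mice, with 3 libraries for each genotype and population and 18 in all. In both lines a short Strep II tag was placed inside the N-terminal region of MIWI, the PIWI protein encoded by Piwil1. The protocol text names the lines RP85 and RP86, so which strain number belongs to Strep1 was taken from the genotype label. The labels for long RNA give no age and do not say which libraries came from separate animals. A p-value here reflects how far libraries scatter within groups, with the spread of a gene estimated jointly over all groups of a fit. Part of that scatter may be technical. Small RNA bound to MIWI from adult Strep1 testes (5 libraries) is used as a further readout.

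An axoneme carries outer and inner rows of dynein arms, whose heavy chains are the motors. Intermediate and light chains hold the outer arms together, and Dnaaf proteins fold and assemble dyneins in the cytoplasm before they reach the tail. Radial spokes and the nexin-dynein regulatory complex pass signals from the central pair of microtubules to the arms, and many Cfap proteins belong to the central apparatus, to the docking sites of inner arms or to the inner wall of the microtubules. In the mouse testis the sperm tail begins to grow in round spermatids, after meiosis, and spermatocytes come before that stage. Some subunits exist in a form used in cilia of airway and other epithelia and in another used in the sperm tail.

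The authors deposited the values as RPM, in which the reads of each gene are scaled to a common library total, with 33.0 to 63.2 M reads per library as estimated from the smallest values. Sorting was described with marker lists, which were written with earlier results of these data known and so are no independent check. All 8 late spermatocyte genes were lower and all 8 spermatid genes were higher in 1n than in 4n cells in each genotype. Of all genes, 39.9% were called lower and 38.9% higher in all 3 genotypes. The spermatid list summed to 3846 to 6818 RPM in 1n libraries and to 121 to 231 RPM in 4n libraries. The late spermatocyte list summed to 226 to 276 RPM in 1n and 1539 to 2321 RPM in 4n libraries. By gene, its 1n level was 1.15% to 68.6% of the 4n level in Strep1. Summed lists of other testis cells were low, at 5.36 to 13.3 RPM in 1n and 6.16 to 9.74 RPM in 4n libraries for Sertoli cells, 0.811 to 3.75 RPM against 1.17 to 1.96 RPM for Leydig cells, 12.4 to 17.7 RPM against 2.84 to 4.28 RPM for peritubular and endothelial cells, and 5.02 to 6.03 RPM against 0.685 to 1.25 RPM for macrophages. The library names fall into 2 series: the 1n libraries of Strep2 and WT are in one, and the 1n libraries of Strep1 and all 4n libraries are in the other. Only in Strep1 does 1n against 4n therefore lie within one series, and Strep1 values are given first. In sorted bulk samples, fewer cells of a type and less RNA per cell cannot be told apart.

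In 1n against 4n cells the 73 genes went in both directions, with most inner arm dynein heavy chains and several assembly and central apparatus genes lower in spermatids, and a second group, among them Dnah3, the cilium forms of the outer arm heavy chains and Cfap47, higher. Of all 15 heavy chains, 10 were lower and 4 higher in all 3 genotypes. In limma on log2(RPM + 0.1), with an adjusted p below 0.05 over all genes kept, 24 of 73 were higher and 39 were lower in 1n cells of Strep1, against 41.6% higher and 43.5% lower among all genes tested. In Strep2, 26 were higher and 37 lower, beside 41.5% and 43.9% of all genes, and in WT 23 were higher and 42 lower, beside 41.1% and 43.9%. Their median log2 fold change was -0.22 in Strep1, -0.19 in Strep2 and -0.28 in WT, and that of all genes was -0.08, -0.09 and -0.10. In all 3 genotypes together, 23 (38.9% of all genes) were called higher and 36 (39.9%) lower. Of the others, 5 were called in no genotype, 7 in some and 2, Cfap43 and Cfap99, in opposite directions. Counted with a change of at least 2-fold in every genotype, 14 were higher and 17 lower, beside 31.3% and 24.6% of all genes, and 42 stayed under that size or were not called throughout. In percent of the 73 genes, 32.9% were called higher and 53.4% lower in Strep1, 35.6% and 50.7% in Strep2 and 31.5% and 57.5% in WT. With this scaling the share called higher lay below that of all genes and the share called lower above it in each genotype. With the 2-fold rule the shares were 19.2% higher, below that of all genes, and 23.3% lower, near that of all genes. For the counts by role below, the shares of all genes called in all 3 genotypes are 38.9% higher and 39.9% lower.

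The split between higher and lower depended on how libraries were scaled, and many members lay near no change. The log2 fold changes in the text are after scaling and the RPM printed are as deposited, so the sizes can differ. With RPM as deposited, the median of all genes was 0.20 in Strep1, 0.12 in Strep2 and 0.22 in WT on the log2 scale, and the counts of members were 30 higher and 28 lower in Strep1, 31 and 27 in Strep2 and 28 and 31 in WT. Of all genes, 46.3% were then higher and 36% lower in Strep1, 44.9% and 37.8% in Strep2 and 46.6% and 35% in WT. The members called lower came to 38.4% in Strep1, 37.0% in Strep2 and 42.5% in WT, so in Strep2 that share was no longer above that of all genes. Under each of 4 scalings and in all 3 genotypes, 23 members were called higher (38.8% of all genes) and 26 lower (32.5% of all genes), and 24 were not called the same way throughout. All 14 members of the 2-fold higher group and all 17 of the 2-fold lower group are among those 49 genes. Under the RPM as deposited, the 2-fold rule held for 16 higher and 11 lower members, beside 33.7% and 19.6% of all genes.

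**Figure D1:**
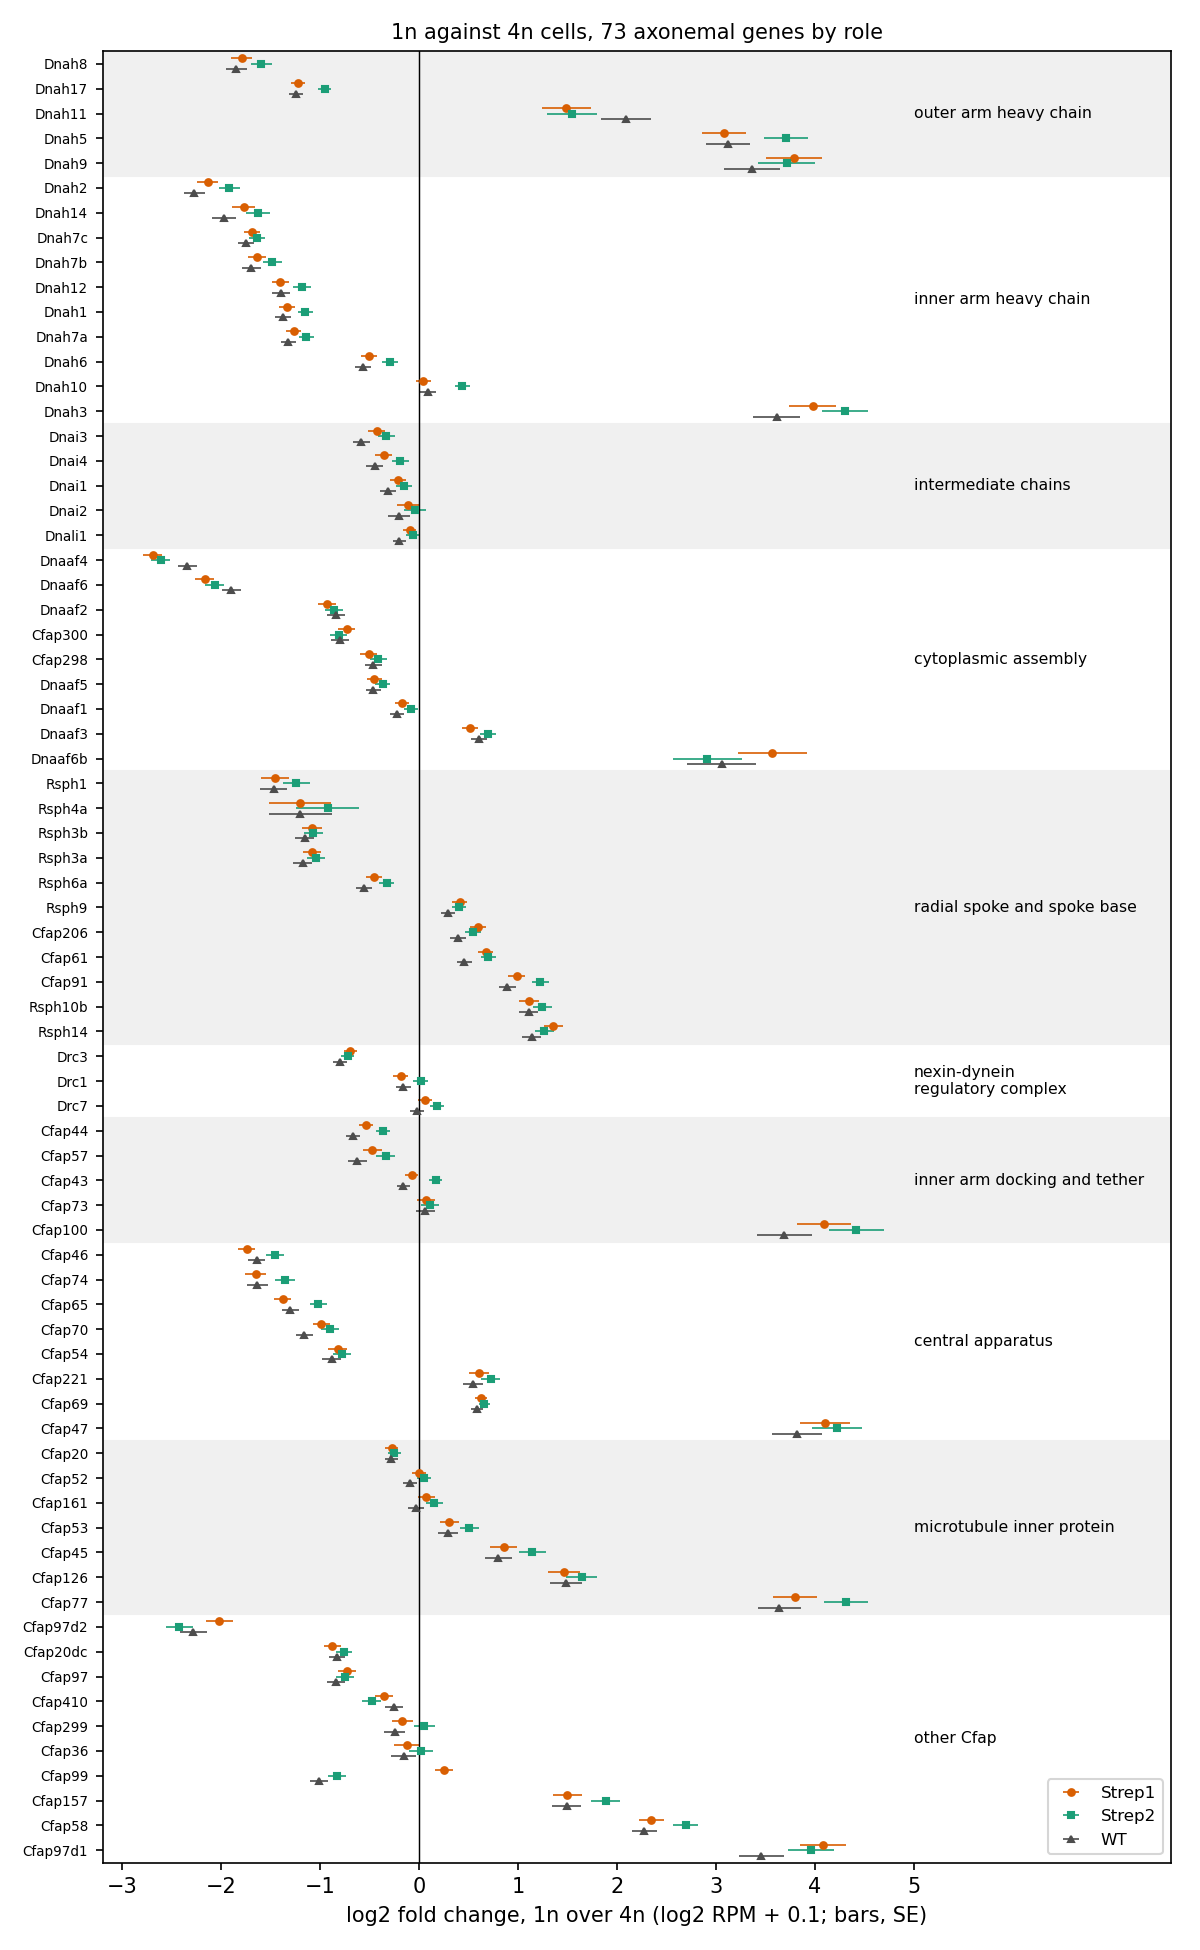
Log2 fold change of 1n over 4n cells for the 73 genes, by role; circles are Strep1, squares Strep2 and triangles WT, and bars are the limma standard error. Most inner arm heavy chains lie left of 0, while Dnah3, Dnah5, Dnah9, Cfap47, Cfap77, Cfap97d1, Cfap100 and Dnaaf6b lie far to the right, at 2.91 to 4.42.

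The heavy chains of the outer arm split by the form they belong to. Dnah8 and Dnah17, used in the sperm tail, were lower in 1n cells, and Dnah5, Dnah9 and Dnah11, the chains of epithelial cilia, were higher but remained far below the sperm forms. Dnah8 (chr17:30843328-31096339 on GRCm39) had 1864, 1772 and 2129.6 RPM in 1n Strep1 libraries, against 4974, 5414 and 5909 RPM in 4n Strep1 libraries. It had 1955, 1993 and 2462 RPM in 1n Strep2 libraries against 5271, 5341 and 5908 RPM in 4n, and 2082, 1721 and 2262 RPM in 1n WT libraries against 5740.0, 5574 and 5878 RPM in 4n. Every 1n library was below every 4n library, and Dnah8 fell in 1n Strep1 cells (log2 fold change -1.79, SE 0.10, limma adjusted p = 9.26e-12) and in the other genotypes (-1.60 in Strep2 and -1.85 in WT). Dnah17 averaged 889 ± 76.7 RPM in 1n and 1696 ± 64.3 RPM in 4n Strep1 libraries (SD, n = 3 each), with 817 to 989.8 RPM over all 1n and 1504 to 1847 RPM over all 4n libraries. It fell in each genotype, with log2 fold changes of -1.23 in Strep1, -0.96 in Strep2 and -1.25 in WT.

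Dnah5 (chr15:28203898-28472198), a motor of the outer arms of airway cilia, had 12.8, 12.3 and 12.8 RPM in 1n and 1.19, 0.890 and 1.40 RPM in 4n Strep1 libraries. In Strep2 it had 18.3, 18.3 and 16.0 RPM in 1n against 1.00, 0.905 and 1.31 RPM in 4n libraries, and in WT 15.7, 15.2 and 16.1 RPM against 0.838, 1.44 and 2.02 RPM. The groups did not overlap and the rise was called in Strep1 (log2 fold change 3.08, SE 0.23, limma adjusted p = 2.19e-10), Strep2 and WT (3.71 in Strep2 and 3.12 in WT). Dnah9 averaged 10.8 ± 0.699 RPM in 1n and 0.602 ± 0.312 RPM in 4n Strep1 libraries (SD, n = 3 each; log2 fold changes 3.78 in Strep1, 3.71 in Strep2 and 3.36 in WT). Dnah11 averaged 1.81 ± 0.0999 RPM in 1n and 0.493 ± 0.192 RPM in 4n Strep1 libraries (SD, n = 3 each; log2 fold changes 1.49 in Strep1, 1.54 in Strep2 and 2.09 in WT). Antisense RPM of Dnah9 came to 4.98% of its sense RPM in 1n and 104% in 4n libraries, and that of Dnah11 to 139% in 1n and 1039% in 4n libraries. Set against length (RPM per kilobase of merged exons), the 3 cilium forms together made up 1.05% to 1.61% of the 5 outer arm heavy chains in 1n libraries and 0.0306% to 0.0715% in 4n libraries. The sperm forms summed to 116 to 153 RPM per kilobase in 1n and 287 to 328 RPM per kilobase in 4n libraries, and the cilium forms to 1.45 to 2.14 RPM per kilobase in 1n and 0.0935 to 0.234 RPM per kilobase in 4n libraries.

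Markers of multiciliated epithelium, which lines the rete testis and efferent ducts and uses the cilium forms, were examined beside these values. Of that list 6 of 8 genes could be tested, and 5 were higher and 1, Krt8, lower in 1n cells in each genotype. The summed list ran from 497 to 641 RPM in 1n and from 45.6 to 72.9 RPM in 4n libraries, and most of it was Deup1 and Foxj1. Foxj1, a transcription factor of motile cilia that spermatids also express, averaged 276 ± 18.7 RPM in 1n and 14.0 ± 5.69 RPM in 4n Strep1 libraries (SD, n = 3 each). Deup1, which builds centrioles in multiciliated cells, averaged 300.3 ± 28.1 RPM against 40.1 ± 5.43 RPM. Mcidas, a defining regulator of multiciliated cells, had at most 0.0291 RPM in any 1n library and 0.0949 RPM in any 4n library, and Trp73 at most 0.301 and 0.283 RPM. Gmnc stood at 0.609 to 1.15 RPM in 1n and 0 to 0.113 RPM in 4n libraries, and the epithelial keratin Krt18 at 0.251 to 0.807 RPM against 0.0121 to 0.113 RPM. The part of such cells in the levels of Dnah5, Dnah9 and Dnah11 was not tested.

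**Figure D2:**
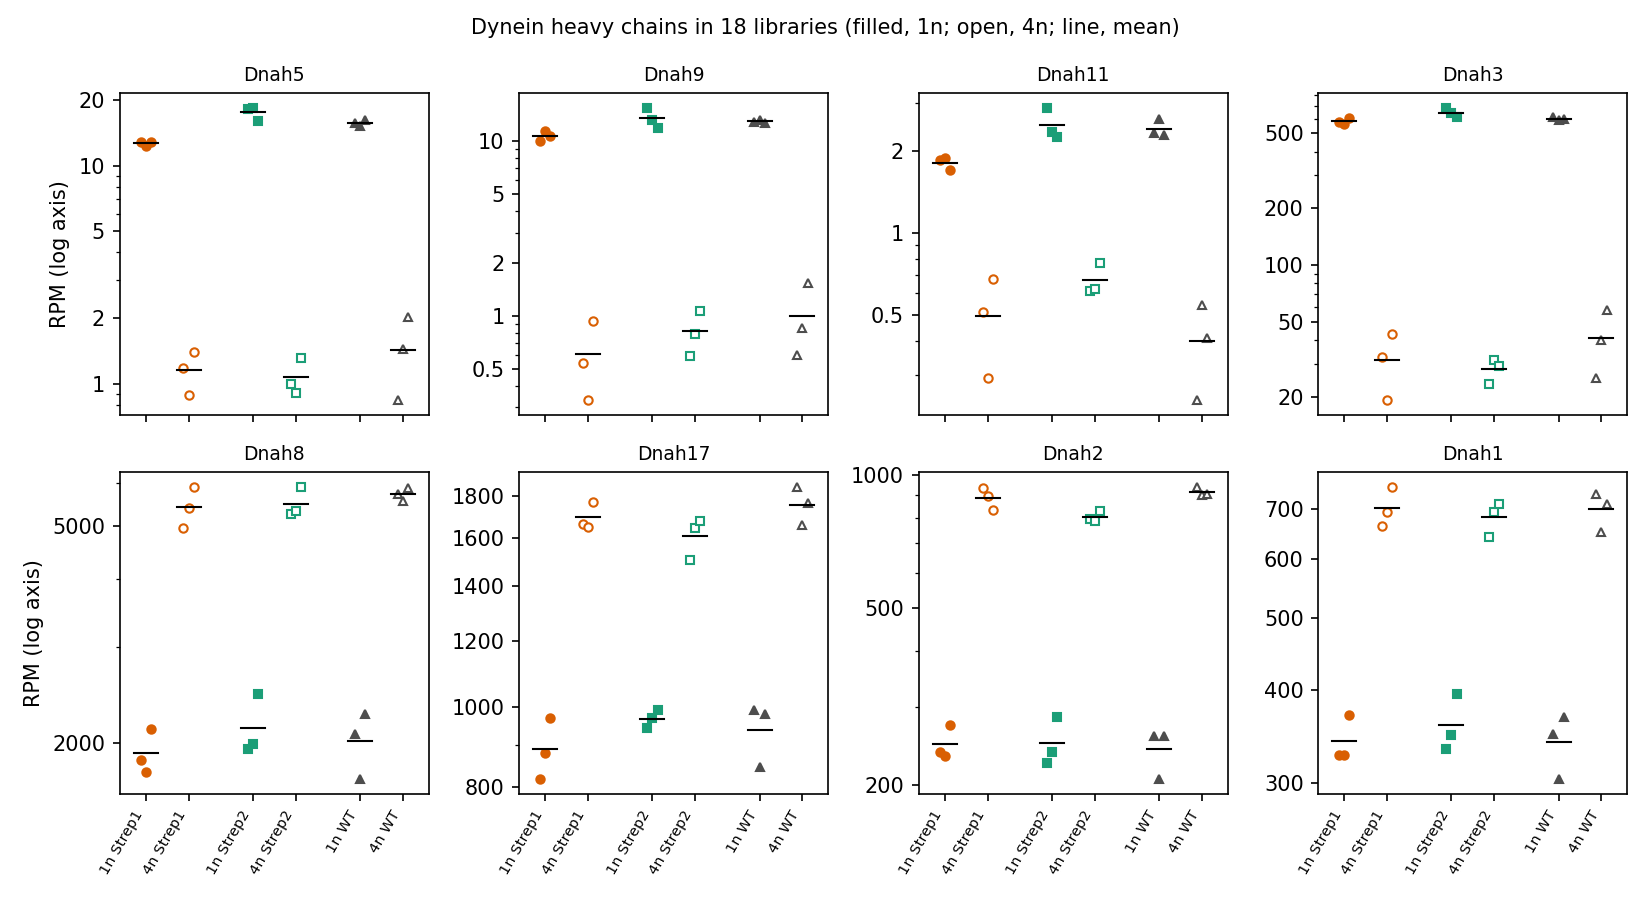
RPM of 8 dynein heavy chains in the 18 libraries on log axes, which differ between panels; filled symbols are 1n and open symbols 4n libraries, and lines are means of 3 libraries. In the upper row (Dnah5, Dnah9, Dnah11, Dnah3) every 1n library lies above every 4n library, and in the lower row (Dnah8, Dnah17, Dnah2, Dnah1) every 1n library lies below.

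Inner arm heavy chains were mostly lower in 1n cells. Of 10 such genes, 8 fell in all 3 genotypes and 1, Dnah3, rose, and the count lower under all 4 scalings was 7. Dnah2, a chain of the double-headed inner arm, had 237, 233 and 273 RPM in 1n and 932, 896 and 830.1 RPM in 4n Strep1 libraries (log2 fold change -2.14, SE 0.11, limma adjusted p = 1.01e-12). Dnah14 averaged 277 ± 23.4 RPM in 1n and 772 ± 41.0 RPM in 4n Strep1 libraries (SD, n = 3 each; log2 fold change -1.78, SE 0.12, limma adjusted p = 7.62e-11). For neither gene did 1n and 4n libraries overlap in any genotype. Dnah1, needed for the sperm tail in mouse and human, averaged 342 ± 24.7 RPM in 1n and 702 ± 43.1 RPM in 4n Strep1 libraries (SD, n = 3 each), with log2 fold changes of -1.34 in Strep1, -1.15 in Strep2 and -1.38 in WT.

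Dnah3 (chr7:119521894-119694503), a single-headed inner arm chain, went the opposite way. It had 572, 563 and 606 RPM in 1n and 32.6, 19.2 and 42.9 RPM in 4n Strep1 libraries. Its values were 681, 643 and 610.1 RPM in 1n and 23.5, 31.5 and 29.1 RPM in 4n Strep2 libraries, and 613, 591 and 593 RPM in 1n and 25.2, 40.0 and 57.5 RPM in 4n WT libraries. All 9 1n libraries were above all 9 4n libraries, and the rise was called in Strep1 (log2 fold change 3.98, SE 0.24, limma adjusted p = 1.20e-11), Strep2 and WT (4.30 in Strep2 and 3.61 in WT). Over all 15 heavy chains the summed level was 5469 to 6975 RPM in 1n libraries and 11635 to 13082 RPM in 4n libraries, which is 37.0% to 44.2% of the RPM of the 73 genes in 1n and 53.6% to 60.3% in 4n libraries. Dnah8 alone took 31.5% to 35.3% of the heavy chain RPM in 1n and 42.7% to 45.7% in 4n libraries.

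Dnah7a, Dnah7b and Dnah7c are near-identical genes on chromosome 1, with Dnah7b (chr1:46105475-46412710) beside Dnah7c (chr1:46464752-46846636) and Dnah7a apart from them on the opposite strand (chr1:53436165-53746005), so reads may be divided between them and their single values are uncertain. All were lower in 1n cells. Dnah7c averaged 205 ± 13.9 RPM in 1n and 540.5 ± 42.5 RPM in 4n Strep1 libraries, Dnah7b 209 ± 15.3 RPM against 532 ± 43.9 RPM, and Dnah7a 201 ± 8.42 RPM against 396 ± 32.1 RPM (SD, n = 3 each). In share of the summed RPM of the 3 copies, Dnah7a had 32.1% to 33.8% in 1n libraries and 26.5% to 27.5% in 4n libraries. By the authors' Salmon signal, which divides reads between copies by a model, its share was 30.4% to 35.1% in 1n and 22.7% to 27.9% in 4n libraries.

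The intermediate and light-intermediate chains changed little. Of 5 such genes, Dnai3 and Dnai4 were called lower in all 3 genotypes, 2 were called in some and 1 in none. Dnai3 averaged 147 ± 5.57 RPM in 1n and 162 ± 12.9 RPM in 4n Strep1 libraries (SD, n = 3 each), and these groups overlapped in RPM (log2 fold change -0.43, SE 0.09, limma adjusted p = 0.000139). Dnai4 averaged 148 ± 6.11 RPM in 1n and 155 ± 0.626 RPM in 4n Strep1 libraries (SD, n = 3 each; log2 fold change -0.36, SE 0.09, limma adjusted p = 0.00067). Under the RPM as deposited the Dnai4 fold change turned to 0.03 in Strep2, and none of the 5 chains was called the same way under all scalings, so no direction is given for this group.

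Dynein assembly factors held the member with the largest fall. Of 9 genes in this role, 6 were called lower in all 3 genotypes, 2 higher and 1 lower in some, with 4 lower and 2 higher under all 4 scalings. Dnaaf4, a cochaperone of dynein folding, had 6.06, 7.21 and 6.93 RPM in 1n and 34.1, 35.4 and 38.5 RPM in 4n Strep1 libraries. It had 7.33, 7.20 and 7.57 RPM in 1n and 34.2, 44.7 and 39.0 RPM in 4n Strep2 libraries, and 8.96, 7.22 and 8.87 RPM in 1n and 36.2, 31.1 and 34.1 RPM in 4n WT libraries. The populations were far apart in each genotype (log2 fold change -2.70, SE 0.10, limma adjusted p = 1.52e-14; -2.61 in Strep2 and -2.35 in WT). Dnaaf2, a further cochaperone, averaged 41.0 ± 2.44 RPM in 1n and 63.9 ± 5.01 RPM in 4n Strep1 libraries (SD, n = 3 each; log2 fold changes -0.93 in Strep1, -0.86 in Strep2 and -0.84 in WT). Dnaaf3 rose, at 119 ± 1.84 RPM in 1n and 67.8 ± 3.89 RPM in 4n Strep1 libraries (SD, n = 3 each; log2 fold changes 0.52 in Strep1, 0.70 in Strep2 and 0.61 in WT).

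Dnaaf6 and Dnaaf6b share a name, and human DNAAF6 is an assembly factor on the X chromosome. In the mouse annotation Dnaaf6 lies on chromosome 1 (chr1:31261919-31263369) as 1 exon that fills its 1451 bases, and Dnaaf6b lies on chromosome X (chrX:138963615-139007566) with 9 merged exons. Dnaaf6 had 5.20, 5.78 and 5.12 RPM in 1n and 18.9, 19.5 and 21.5 RPM in 4n Strep1 libraries, and it fell (log2 fold change -2.17, SE 0.10, limma adjusted p = 2.62e-13). Dnaaf6b had 1.83, 2.18 and 1.77 RPM in 1n and 0.0255, 0 and 0.193 RPM in 4n Strep1 libraries, and it rose (log2 fold change 3.57, SE 0.35, limma adjusted p = 1.41e-08). Both directions were called in Strep2 and WT as well, with log2 fold changes of -2.07 in Strep2 and -1.90 in WT for Dnaaf6 and 2.91 in Strep2 and 3.06 in WT for Dnaaf6b. Dnaaf6b had at most 2.18 RPM in any library and passed the filter of 0.3 RPM through its 1n libraries, where it is higher. Its 4n values in Strep1 lie near or below the pseudocount of 0.1 RPM, so the size of its fold change depends on that setting. How far reads were shared between Dnaaf6 and Dnaaf6b was not tested.

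Radial spoke genes went both ways, with 6 of 11 genes of the spokes and their base higher and 5 lower in all 3 genotypes. Rsph1, a spoke head protein, had 210.3, 315 and 247 RPM in 1n and 566, 519.6 and 625 RPM in 4n Strep1 libraries, with all 9 1n libraries below all 9 4n libraries (log2 fold change -1.46, SE 0.14, limma adjusted p = 1.02e-08). Rsph9, a further head protein, averaged 57.8 ± 1.90 RPM in 1n and 35.5 ± 2.58 RPM in 4n Strep1 libraries (SD, n = 3 each) and rose (log2 fold change 0.41, SE 0.07, limma adjusted p = 3.77e-05). Rsph6a and Rsph4a are the sperm and cilium forms of 1 head subunit. Rsph6a averaged 189 ± 18.8 RPM in 1n and 211 ± 10.5 RPM in 4n Strep1 libraries (SD, n = 3 each), and 1n and 4n groups overlapped in RPM in Strep1 and Strep2. Rsph4a ran from 0.0921 to 0.371 RPM in 1n and from 0.206 to 0.789 RPM in 4n libraries. It was called lower in 1n (log2 fold change -1.20, SE 0.32, limma adjusted p = 0.00173). These values lie near the filter of 0.3 RPM and the pseudocount of 0.1 RPM. Rsph4a passed that filter through its 4n libraries, where it is higher, so no contrast with the cilium forms of the heavy chains is drawn. Relative to length, Rsph1 had the highest level of the 73 genes in 4n cells, at 371 RPM per kilobase in Strep1, and Dnaaf1 in 1n cells, at 344 RPM per kilobase.

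Rsph14 and Rsph10b were the spoke genes with the largest rises. Rsph14 had 22.4, 26.7 and 23.6 RPM in 1n and 7.46, 7.03 and 8.54 RPM in 4n Strep1 libraries (log2 fold change 1.36, SE 0.10, limma adjusted p = 1.64e-10). Its antisense reads were 9.00% of sense reads in 1n and 93.0% in 4n cells. Rsph10b had 75.5, 82.8 and 75.3 RPM in 1n and 30.0, 26.0 and 32.5 RPM in 4n Strep1 libraries (log2 fold change 1.11, SE 0.10, limma adjusted p = 2.74e-09). Cfap206, at the spoke base, averaged 862 ± 77.8 RPM in 1n and 467 ± 50.4 RPM in 4n Strep1 libraries (SD, n = 3 each; log2 fold changes 0.59 in Strep1, 0.54 in Strep2 and 0.39 in WT). Rsph3a and Rsph3b, near-identical copies of a stalk protein on chromosome 17, both fell, with log2 fold changes of -1.08 in Strep1, -1.04 in Strep2 and -1.18 in WT for Rsph3a and -1.08 in Strep1, -1.07 in Strep2 and -1.16 in WT for Rsph3b. Rsph3a took 54.1% to 56.5% of their summed RPM in 1n and 54.9% to 55.6% in 4n libraries, but 44.9% to 50.5% and 44.4% to 45.9% of the authors' Salmon signal, so which copy is the more abundant depends on the counting.

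Of the 3 genes of the nexin-dynein regulatory complex, Drc3 fell in all 3 genotypes and the other two were called in some. Drc3 averaged 72.5 ± 3.53 RPM in 1n and 95.9 ± 7.40 RPM in 4n Strep1 libraries (SD, n = 3 each; log2 fold change -0.70, SE 0.07, limma adjusted p = 1.44e-08). Among the 5 docking and tether genes of inner arms, Cfap100 stood apart. It had 70.9, 89.1 and 77.1 RPM in 1n and 4.73, 2.17 and 4.83 RPM in 4n Strep1 libraries, 109, 101 and 67.7 RPM against 3.13, 3.84 and 3.67 RPM in Strep2, and 94.5, 92.0 and 78.6 RPM against 3.51, 5.08 and 8.43 RPM in WT. It rose in each (log2 fold change 4.09, SE 0.28, limma adjusted p = 7.02e-11; 4.42 in Strep2 and 3.69 in WT). Cfap43, a tether protein, was called higher in Strep2 (0.16) and lower in WT (-0.16), changes of a size that turned with the scaling.

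In the central apparatus 5 of 8 genes fell and 3 rose in all 3 genotypes, and each kept its call under all 4 scalings. Cfap47 (chrX:78310165-78561191) on chromosome X had 83.7, 78.6 and 80.6 RPM in 1n and 4.59, 2.38 and 4.88 RPM in 4n Strep1 libraries. Its values were 88.9, 87.8 and 94.4 RPM in 1n and 3.04, 5.20 and 4.19 RPM in 4n Strep2 libraries, and 85.9, 67.6 and 88.4 RPM in 1n and 2.85, 5.01 and 6.04 RPM in 4n WT libraries. No 1n library came near a 4n library, and in Strep1 it was the largest rise of the 73 genes (log2 fold change 4.10, SE 0.25, limma adjusted p = 1.95e-11; 4.23 in Strep2 and 3.82 in WT). Cfap46 averaged 109 ± 7.08 RPM in 1n and 299 ± 25.8 RPM in 4n Strep1 libraries, Cfap74 140.4 ± 9.11 RPM against 361 ± 38.7 RPM, and Cfap65 519 ± 23.5 RPM against 1103 ± 95.8 RPM (SD, n = 3 each). These fell by 1.75, 1.65 and 1.38 on the log2 scale in Strep1 (limma adjusted p = 1.46e-12, 2.32e-11 and 2.15e-11). Cfap70 fell by less, with log2 fold changes of -0.99 in Strep1, -0.90 in Strep2 and -1.16 in WT.

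Proteins of the microtubule inner wall were mostly level or higher, with 4 of 7 higher and 1 lower in all 3 genotypes and none lower under all 4 scalings. Cfap77 had 34.3, 41.2 and 35.5 RPM in 1n and 2.24, 1.56 and 2.56 RPM in 4n Strep1 libraries (log2 fold change 3.80, SE 0.22, limma adjusted p = 8.38e-12). Of the 10 remaining Cfap genes 3 rose and 4 fell in all 3 genotypes. Cfap97d1, which maintains the sperm axoneme in the mouse, had 44.1, 49.8 and 41.6 RPM in 1n and 2.19, 1.36 and 3.03 RPM in 4n Strep1 libraries (log2 fold change 4.08, SE 0.23, limma adjusted p = 5.90e-12). Cfap58, a protein of the sperm midpiece and axoneme, averaged 232 ± 29.6 RPM in 1n and 37.2 ± 5.81 RPM in 4n Strep1 libraries (SD, n = 3 each; log2 fold change 2.35, SE 0.13, limma adjusted p = 3.28e-12). Cfap157 averaged 69.4 ± 16.4 RPM against 19.8 ± 3.02 RPM (SD, n = 3 each; log2 fold change 1.50, SE 0.15, limma adjusted p = 1.57e-08). These rises had no overlap between populations in any genotype. Cfap97d2 went down, at 0.952, 0.843 and 0.894 RPM in 1n and 3.17, 3.30 and 3.21 RPM in 4n Strep1 libraries (log2 fold change -2.02, SE 0.14, limma adjusted p = 7.37e-11). Its antisense RPM came to 144% of its sense RPM in 1n and 65.6% in 4n libraries. Cfap20dc fell by 0.88 on the log2 scale in Strep1.

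How far a gene was already on in 4n cells was read as its mean 4n RPM in percent of its mean 1n RPM. These RPM are as deposited, without the scaling used to form the 2-fold groups. The 42 members outside the 2-fold groups ran from 41.1% to 223% in Strep1, with a median of 92.3%, a range that their choice by size of change limits. Of these 42, 41 had at least 1 RPM in every 4n library, the exception being Rsph4a. The 17 lower members had 1n levels of 18.7% to 57.9% of their 4n levels in Strep1. The highest of these, Rsph3a at 57.9%, was 2-fold lower only after scaling. At least 1 RPM was reached by 68 to 70 of the 73 genes in each 4n library, compared with 71 in each 1n library. The 14 higher members fell into a wide range. Rsph10b (37.8%), Rsph14 (31.7%), Cfap157 (28.5%) and Dnah11 (27.2%) had the highest 4n shares in Strep1 among those named, Cfap58 had 16.1%, and 8 of the 14 were under 10% in each genotype. Those were Cfap47 (4.88%), Cfap97d1 (4.86%), Cfap100 (4.95%), Dnah3 (5.43%), Dnah9 (5.59%), Cfap77 (5.73%), Dnah5 (9.17%) and Dnaaf6b (3.79%). The share of Dnaaf6b rests on very low 4n values.

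The same measure in the 8 spermatid markers, among them protamines and transition proteins, was 2.42% to 5.82% in Strep1, 3.03% to 4.76% in Strep2 and 1.94% to 6.67% in WT. In Strep1 7 of the 14 higher members were at or below the highest of these markers, and 4 were in Strep2 and 4 in WT. The spermatid list summed to 231, 121 and 207 RPM in the 4n Strep1 libraries in replicate order, to 131, 222 and 165 RPM in 4n Strep2 and to 130.4, 148 and 211 RPM in 4n WT libraries. Of the 8 genes under 10%, 7 had their lowest 4n value in the 4n library with the lowest sum in all 3 genotypes, and Dnah5 had it there in Strep1 and WT but not in Strep2. This was not counted over all genes. The highest values are given for only some of the 8 genes and were not counted over all genes either. In 4n Strep1 the sum was highest in replicate 1 (231 RPM) and next in replicate 3 (207 RPM). Dnah3, Dnah5, Cfap47, Cfap77, Cfap97d1, Cfap100 and Dnaaf6b were highest in that replicate 3. Dnah3, Cfap47 and Cfap100 were highest where the sum was highest in 4n Strep2 and WT, and Dnah5 only in WT of these. Dnah9, Cfap77, Cfap97d1 and Dnaaf6b are not described in Strep2 and WT. The part of spermatid RNA in the 4n levels of these genes was not tested.

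**Figure D3:**
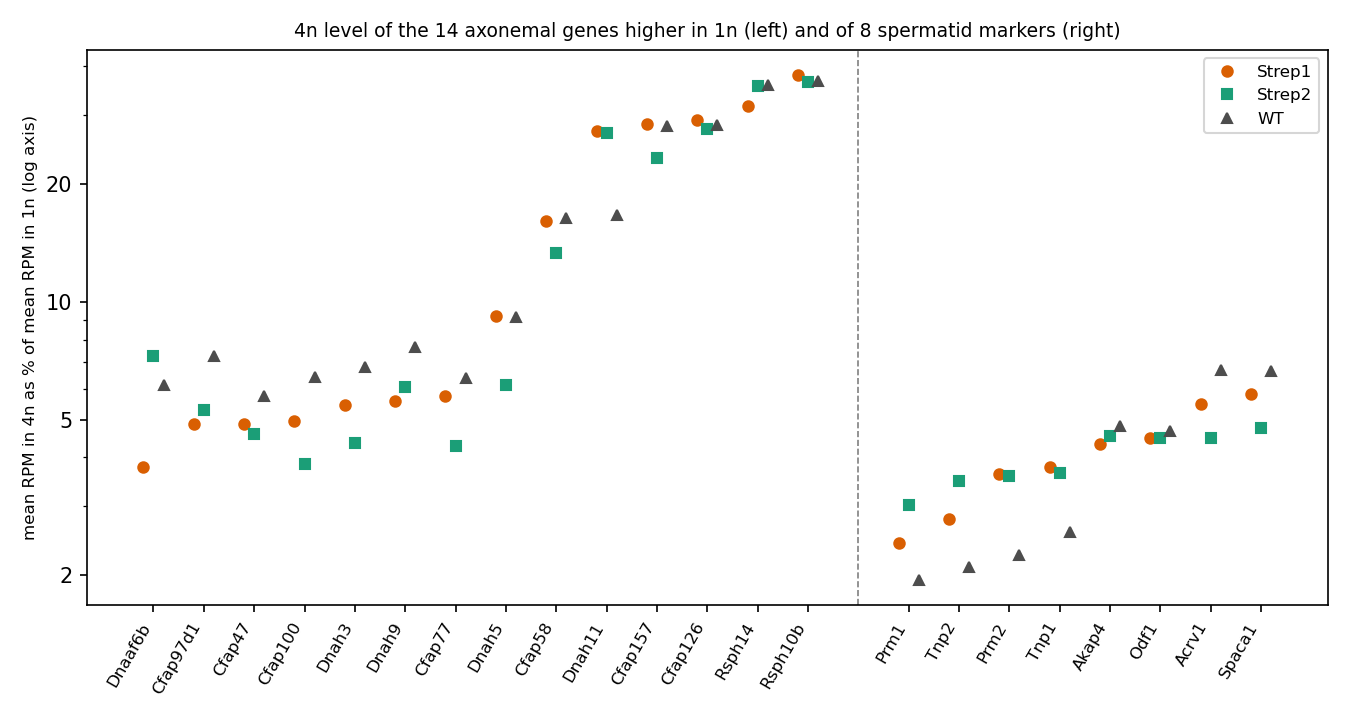
Mean 4n RPM in percent of mean 1n RPM (log axis) for the 14 axonemal genes at least 2-fold higher in 1n cells and, right of the dashed line, for 8 spermatid markers; circles are Strep1, squares Strep2 and triangles WT. The 8 genes from Dnaaf6b to Dnah5 lie under 10%, near the markers, and the 6 genes from Cfap58 to Rsph10b lie above 10%.

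Axonemal and assembly genes that the naming rule does not reach were counted from a separate list. Of 48 tested, 25 were higher and 16 lower in 1n cells of Strep1, beside 41.6% and 43.5% of all genes. Their median log2 fold change in Strep1 was 0.22. In all 3 genotypes 22 were higher and 14 lower, beside 38.9% and 39.9% of all genes. Spag6, a central apparatus gene, and Fbxl13, a gene of the nexin-dynein regulatory complex, were among those far higher in 1n cells, with 255 ± 17.3 RPM and 208 ± 3.97 RPM in 1n against 13.4 ± 5.78 RPM and 13.4 ± 4.67 RPM in 4n Strep1 libraries (SD, n = 3 each). Zmynd10, an assembly factor, went down with Dnaaf4, at 139 ± 5.72 RPM in 1n and 376 ± 20.3 RPM in 4n Strep1 libraries. Of 10 transcription regulators of ciliary and meiotic genes, 6 were higher (Foxj1, Rfx1, Rfx3, Taf7l, Crem and Sox30), 3 lower (Mybl1, Tcfl5 and Rfx4) and Rfx2 not called in each genotype. The same shares of all genes stand beside these counts. Rfx2, which drives spermatid genes of the tail, averaged 480.1 ± 20.6 RPM in 1n and 387 ± 33.3 RPM in 4n Strep1 libraries. Mybl1, a regulator of male meiosis, averaged 45.0 ± 3.69 RPM against 173 ± 13.8 RPM.

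Because the members moved in opposite groups, their promoter windows were searched for letters bound by factors of these families. RefSeq windows on GRCm38.p6, each around an annotated start, matched 59 of the 73 genes. The X-box sequences GTTGCCAT and GTTGCTAT, bound by RFX factors, were in 10 of 59 genes (16.9%) and in 2.59% of all 27025 genes, counting both strands. They were in 3 of 15 matched members that were 2-fold lower in 1n cells, in 7 of 33 in between and in 0 of 11 that were 2-fold higher. MYB sites (CAACTGNC and AACGGNC) were in 9 of 59 genes (15.3%) and in 9.33% of all genes, with 5 of 15, 4 of 33 and 0 of 11 in the same order. CRE sites (TGACGTCA and TGACGTAA) were in 1 of 59 genes (1.69%) and in 2.59% of all genes. A match is only a description of these letters in these windows.

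Windows of 6 members are shown to set the letters beside the values above, with the searched letters in capitals. Dnaaf4 (the largest fall), Cfap74 (a fall) and Cfap44 (a tether gene under the 2-fold limit, with overlapping X-box sequences) hold matches, and Dnah2 (a fall) and Cfap47 and Cfap100 (the largest rises in Strep1) hold none. The windows were chosen after the matches were seen, and 8 of the 15 matched 2-fold lower members hold no searched site. Each is written 5′ to 3′ along the gene, and the positions are Dnaaf4 chr9:72958535-72958834, plus strand; Cfap74 chr4:155408940-155409239, plus strand; Cfap44 chr16:44394549-44394848, plus strand; Dnah2 chr11:69549059-69549358, minus strand; Cfap47 chrX:79517302-79517601, minus strand; Cfap100 chr6:90428431-90428730, minus strand.
Dnaaf4: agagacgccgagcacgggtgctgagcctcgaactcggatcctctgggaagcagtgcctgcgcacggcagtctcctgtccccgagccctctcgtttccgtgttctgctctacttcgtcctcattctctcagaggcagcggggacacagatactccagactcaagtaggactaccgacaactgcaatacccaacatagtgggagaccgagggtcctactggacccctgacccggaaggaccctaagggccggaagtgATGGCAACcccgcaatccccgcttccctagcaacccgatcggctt
Cfap74: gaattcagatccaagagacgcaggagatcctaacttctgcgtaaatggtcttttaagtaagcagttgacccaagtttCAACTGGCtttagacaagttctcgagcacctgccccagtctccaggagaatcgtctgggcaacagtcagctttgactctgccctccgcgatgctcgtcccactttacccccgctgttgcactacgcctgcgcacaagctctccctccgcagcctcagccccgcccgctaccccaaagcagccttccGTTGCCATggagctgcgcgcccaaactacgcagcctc
Cfap44: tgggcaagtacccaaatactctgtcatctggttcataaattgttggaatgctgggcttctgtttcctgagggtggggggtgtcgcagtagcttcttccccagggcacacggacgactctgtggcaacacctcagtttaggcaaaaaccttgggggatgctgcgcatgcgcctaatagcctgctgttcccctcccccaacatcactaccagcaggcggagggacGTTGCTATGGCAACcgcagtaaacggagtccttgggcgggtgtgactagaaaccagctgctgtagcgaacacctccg
Dnah2: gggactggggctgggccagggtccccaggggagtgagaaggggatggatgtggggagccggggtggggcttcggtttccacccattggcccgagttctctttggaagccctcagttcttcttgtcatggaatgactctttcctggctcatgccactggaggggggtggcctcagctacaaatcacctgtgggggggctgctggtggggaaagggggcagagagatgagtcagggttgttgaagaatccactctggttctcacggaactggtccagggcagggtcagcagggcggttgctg
Cfap47: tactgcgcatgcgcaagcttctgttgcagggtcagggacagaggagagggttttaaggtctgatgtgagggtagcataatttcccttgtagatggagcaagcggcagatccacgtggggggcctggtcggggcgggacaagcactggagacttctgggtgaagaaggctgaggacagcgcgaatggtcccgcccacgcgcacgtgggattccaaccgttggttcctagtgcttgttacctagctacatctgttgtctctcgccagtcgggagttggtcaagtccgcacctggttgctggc
Cfap100: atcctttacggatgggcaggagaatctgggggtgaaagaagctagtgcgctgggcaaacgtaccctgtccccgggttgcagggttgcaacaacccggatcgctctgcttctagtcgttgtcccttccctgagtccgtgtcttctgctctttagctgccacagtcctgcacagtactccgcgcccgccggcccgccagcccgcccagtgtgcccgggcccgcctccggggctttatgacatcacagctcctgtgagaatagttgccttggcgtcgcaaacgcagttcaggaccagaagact
In the Dnaaf4 window the capitals are an X-box sequence on the opposite strand, in Cfap74 a MYB site and then an X-box sequence, and in Cfap44 overlapping X-box sequences on both strands.

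The lines with tagged MIWI were compared with WT within each population, and Cfap99 was the only member called. In 4n cells 1 of 72 members tested was called in Strep1 against WT (0.932% of all genes) and 0 in Strep2 against WT (0.547%). An unadjusted p below 0.05 was found for 10 of 72 in Strep1 (8.27% of all genes) and 23 of 72 in Strep2 (17.2%). In 1n cells 1 of 72 was called in Strep1 against WT (1.34%) and 0 in Strep2 against WT (0.105%), and an unadjusted p below 0.05 for 9 in Strep1 (14.1%) and 2 in Strep2 (9.02%). A member was left out of each of these tests for low values, Dnaaf6b in 4n cells and Rsph4a in 1n cells. The smallest p in Strep2 against WT belonged to Dnah17 in 4n cells (1504, 1646 and 1680.3 RPM in Strep2 against 1847, 1659.9 and 1764 RPM in WT; log2 fold change -0.25, limma adjusted p = 0.0681) and to Cfap206 in 1n cells (log2 fold change 0.16, limma adjusted p = 0.523). In the authors' deposited table, adjusted p was below 0.05 for Cfap99 in both Strep1 comparisons, for Dnah17 in 4n Strep2 (log2 fold change -0.20) and for Dnah14 in 1n Strep1 (-0.21), and for no other member that the table lists, which for 4n Strep2 is 71 of 73 genes (Dnah11 and Dnaaf6b have no row there).

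Cfap99 (chr5:34445944-34484671) had 57.1, 68.7 and 61.8 RPM in 1n Strep1 libraries, 34.8, 36.3 and 32.4 RPM in 1n Strep2 libraries and 37.7, 34.4 and 31.6 RPM in 1n WT libraries. In 4n cells it had 47.2, 39.0 and 41.9 RPM in Strep1, 50.3, 58.1 and 49.5 RPM in Strep2 and 58.8, 52.1 and 54.3 RPM in WT. Strep1 thus lay above every Strep2 and WT library in 1n cells and below all of them in 4n cells. Against WT the log2 fold change of Strep1 was 0.81 in 1n cells (SE 0.09, limma adjusted p = 4.68e-05) and -0.46 in 4n cells (SE 0.09, limma adjusted p = 0.0345). In 1n against 4n cells it was higher in Strep1 (0.25) and lower in Strep2 and WT (-0.83 and -1.01). The 1n comparison of Strep1 with WT crosses the library series and the 4n comparison does not. The 4n call was lost with RPM as deposited, without the filter on low values, with the 6 libraries alone and when any 4n WT library or replicate 2 or 3 of the 4n Strep1 libraries was left out. The 1n call was kept under every alternative run.

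Cfap99 was not alone in its neighbourhood, which was examined after its values were seen. Among genes starting within 1 Mb of it on chromosome 5, 6 of 36 tested were called in Strep1 against WT in 1n cells, Cfap99 included, and 3 of 36 in 4n cells, beside the 1.34% and 0.932% of all genes given above. Over all of chromosome 5, 54 of 1384 were called in 1n and 36 of 1313 in 4n cells. In Strep2 against WT 0 of 36 were called in either population. Zfyve28 lies head to head with Cfap99 on the opposite strand, with 53 bases between the pair. It had a log2 fold change of 2.04 in Strep1 against WT in 1n cells (SE 0.11, limma adjusted p = 2.12e-08), and of 1.41 in 4n cells (SE 0.33, limma adjusted p = 0.101). In 1n cells both genes of the pair were thus higher in Strep1, and in 4n cells their log2 fold changes had opposite signs, with Zfyve28 not called. Letm1, a mitochondrial ion transporter in the same 1 Mb window, was higher in both populations, by 2.02 in 1n and 1.55 in 4n cells on the log2 scale (limma adjusted p = 9.44e-09 and 2.11e-07). Fgfr3, a growth factor receptor, and G630022F23Rik were lower in 1n Strep1 cells, with log2 fold changes of -1.19 and -0.98 (limma adjusted p = 0.00986 and 0.00208). G630022F23Rik was also lower in 4n Strep1 cells, with a log2 fold change of -0.70 (limma adjusted p = 0.0173). Piwil1, which carries the tag, is also on chromosome 5, at chr5:128779588-128832538.

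The test of the difference itself called 1 of 73 members for Strep1 against WT (0.258% of all genes), again Cfap99, by 1.27 on the log2 scale (SE 0.13, limma adjusted p = 2.40e-05). For Strep2 against WT it called 0 of 73 (0.0701%), with 14 members at an unadjusted p below 0.05 (11.3% of all genes), and the smallest p belonged to Cfap43 (0.32, limma adjusted p = 0.251).

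**Figure D4:**
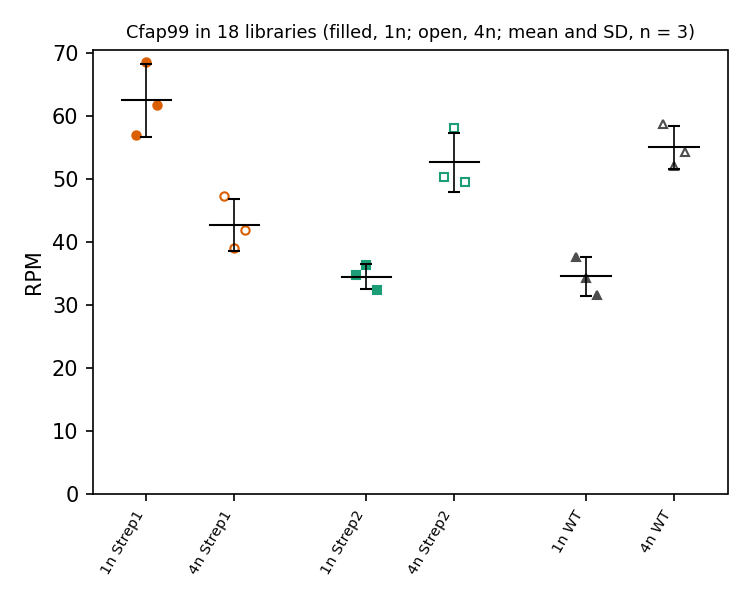
RPM of Cfap99 in the 18 libraries; filled symbols are 1n and open symbols 4n libraries, and bars are mean and SD of 3 libraries. The 1n Strep1 libraries are the highest of the 1n libraries, at 57.1, 68.7 and 61.8 RPM, and the 4n Strep1 libraries the lowest of the 4n libraries.

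Small RNA bound to MIWI in Strep1 testes also carried fragments of these transcripts on the sense strand. A mean of at least 1 RPM over 5 libraries was reached by 51 of 73 members (69.9%) and by 21.3% of all protein-coding genes. Among members it was reached by 15 of the 17 that were 2-fold lower in 1n cells, by 34 of 42 in between and by 2 of the 14 that were 2-fold higher. The same split was not counted over all genes, so it cannot be read as particular to these members. Dnah8 had the highest mean, 97.2 ± 51.9 RPM (SD, n = 5), and Dnah3 had the highest of the 2-fold higher members, 3.17 ± 2.28 RPM. Relative to length Rsph1 was first, at 14.9 RPM per kilobase, beside medians of 0.335 over members and 0.0224 over all protein-coding genes. No member reached 1 RPM on the antisense strand. No control purification is among the libraries, and the abundance and length of each transcript differ too, so the share bound by MIWI was not tested. The 21.3% is over all protein-coding genes, with no limit to those expressed in these cells.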

How the data were processed

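Testicular cells were sorted into 1n and 4n cells, and 18 long RNA libraries and 5 libraries of MIWI-bound small RNA are used here. The authors deposited both as RPM, 1 set per strand, with genes, repeats, tRNAs and piRNA clusters as features. What the RPM were divided by is not given in the sources used here. The authors also deposited a normalized signal per gene and library, with log2 fold changes and p-values of each line against WT. Tools per the submitters' processing notes were STAR, Bowtie, cutadapt and featureCounts, with Salmon 1.3.0, DESeq2 and DESeq, on GRCm39, and the role of each is not given there. Per the labels' protocols the long RNA kit keeps the strand and removes ribosomal RNA. The small RNA tables hold 4 columns of no sample in the labels, which were not used.

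Between 39.6% and 44.3% of a library's values came within 0.01 of whole reads, so reads could not be recovered and the planned count test was replaced by limma 3.58.1 (trend on) in R 4.3.3. It was fitted on log2(RPM + 0.1) over genes that reached 0.3 RPM in 3 or more libraries. Scaling was by a trimmed mean over the genes kept (trim of 30% on ratios and 5% on levels). Benjamini-Hochberg adjustment ran over all genes kept and the threshold was 0.05. All 18 libraries entered the 1n against 4n fit and the tests of a difference between genotypes, and the 9 libraries of a population entered the fits of each line against WT. A gene named with its values is among the largest changes called in all 3 genotypes in its family (3 each way, 6 for Cfap), has a cilium and a sperm form, lies on chromosome X, is a near-identical copy, or was called or had the smallest p between genotypes; others come from listed genes. The members and lists were chosen with earlier results of these data known. The fit was tested on simulated data. Alternatives were another pseudocount, no filter, other scalings, fewer libraries, a replicate block and leaving out each library. Gene positions are from GENCODE on GRCm39, and promoter windows from RefSeq on GRCm38.p6. Tables and plots were made with Python 3.11.15, pandas 2.3.3 and matplotlib 3.10.9. Intervals from counts are not given, since reads could not be recovered.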

Additional observations from a re-analysis of the deposited data

Results flagged for a closer look

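Cfap99 differed between genotypes in the size of its 1n against 4n change. The difference between Strep1 and WT was 1.27 on the log2 scale (SE 0.13, limma adjusted p = 2.40e-05, n = 3 libraries in each of 4 groups). The log2 fold change of 1n over 4n cells was 0.25 in Strep1 and -1.01 in WT, beside -0.83 in Strep2. All 3 libraries of 1n Strep1 lay above the 3 of 1n WT, and all 3 of 4n Strep1 below the 3 of 4n WT. The 1n libraries of Strep1 and WT belong to different library series, and the 4n libraries to one.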

How the results depend on the processing

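The counts of members called in 1n against 4n cells, both directions together, changed little with the setting, at 58 to 63 in Strep1, 58 to 63 in Strep2 and 59 to 65 in WT. The split by direction moved more, from 24 higher and 39 lower in Strep1 to 30 and 28 with RPM as deposited. Over the genes named, 1712 of the values recomputed kept their direction and call, 47 kept the direction without the call, and 5 turned. Those that turned were small. Cfap43 in Strep1 was -0.08 on the log2 scale, against 0.22 with RPM as deposited, 7.12e-06 with scaling by the median and 0.089 with scaling over all features, an alternative chosen after seeing the data. With RPM as deposited, Cfap43 was 0.18 in WT and Dnai4 0.031 in Strep2, against -0.16 and -0.19. RPM as deposited left 11 members at least 2-fold lower in all 3 genotypes, against 17. Among all members called, named or not, it turned the sign of 4 in Strep1, 1 in Strep2 and 7 in WT, and 0 of these were then called.

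Strep1 against WT in 4n cells called 1 member, and 0 with no filter, with RPM as deposited and with the 6 libraries of the 2 groups alone. Strep2 against WT in 4n cells called 0 members, and 2 (Dnah10 and Cfap43, both lower) with the 6 libraries alone. Leaving out 1 library at a time gave 59 to 63 calls in Strep1, 59 to 62 in Strep2 and 63 to 65 in WT for 1n against 4n. It gave 0 to 1 for Strep1 against WT in 4n cells, and 1 to 3 in 1n cells, with 3 (Cfap99, Dnaaf4 and Cfap97d1) without replicate 2 of the 1n WT libraries. For Strep2 against WT it gave 0 in both populations. The cause of these shifts was not tested.

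With a replicate block, Strep1 against WT in 1n cells called 2 members (Cfap99 and Cfap97d1), against 1. Same-numbered libraries correlated at -0.141 to 0.177 between 1n and 4n (9 pairs) and at -0.342 to 0.348 between genotypes (18 pairs). These values gave no sign of pairing by number. They cannot exclude it, since noise of sorting and library making could hide shared animals. Depth limits members with few reads, such as Dnaaf6b in 4n cells.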

Other observations

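Antisense reads were compared with sense reads for each member, as the antisense RPM in percent of the sense RPM over the 9 libraries of a population. The median over the 73 genes was 0.313% in 1n and 0.215% in 4n cells, but a few members had antisense levels near or above the sense level. Dnah11 had 139% in 1n and 1039% in 4n cells, Dnah9 4.98% in 1n and 104% in 4n cells, and Rsph14 9.00% in 1n and 93.0% in 4n cells. Cfap97d2 had 144% in 1n and 65.6% in 4n cells. In the annotation, exons of Dnah11 share 642 bases with Cdca7l on the opposite strand, and those of Dnah9 share 70 bases with Zkscan6 and 495 with the long non-coding RNA Gm12296. Dnah3 shares 1582 bases with Lyrm1, and its antisense RPM was 0.784% of its sense RPM in 1n and 15.1% in 4n libraries. Rsph14 has genes on the opposite strand with 0 shared exon bases. The part of imperfect strand marking in the sense values of Dnah3, Dnah9 and Rsph14 in 4n cells was not tested. Nor was it for Dnah11 and Cfap97d2 in both populations.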
